A study of Homo sapiens with 24 samples.

Results

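CCNA2, PLK1 and KIF20A are 3 genes of the late cell cycle, and they were followed in total RNA of HGC27 cells, a human gastric carcinoma line. In the deposited count files most aligned reads lie under no row, and those that were counted lie mostly under rows of genes on the other strand, so CCNA2 was read through the row named EXOSC9, PLK1 through ENSG00000261266 and KIF20A through CDC23. These 3 rows were chosen by name among 61578 in each file. They are called the CCNA2, PLK1 and KIF20A readings here, and values under the 3 genes' own names are given apart.

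The study set HGC27 cells labelled as TMEM97 knockouts beside cells labelled as wild type or parental, each kept for 3 days in high glucose DMEM with LPDS or with FBS. LPDS, lipoprotein-deficient serum in common use, and FBS, fetal bovine serum, are not spelled out by the labels. SG12 LPDS, SG12 FBS, SG21 LPDS and SG21 FBS carry the genotype label TMEM97 Knockout. SGCTRL LPDS and SGCTRL FBS are labelled SG Control, WT, and parental LPDS and parental FBS are the line itself. Each of the 8 groups has 3 libraries, called biological replicates, which makes 24. The labels name neither the guides nor whether a line is 1 clone, so SG12 and SG21 were kept apart. TMEM97 encodes a membrane protein of the endoplasmic reticulum and lysosome that binds sterols.

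Cyclin A2, the product of CCNA2, activates CDK2 in S phase and CDK1 at the entry into mitosis, and is destroyed early in mitosis. Polo-like kinase 1, the product of PLK1, drives entry into mitosis, maturation of the centrosomes and cytokinesis. KIF20A is a kinesin of the central spindle that is needed for cytokinesis and recruits PLK1 there. Transcripts of all 3 genes build up in G2 and mitosis and are low in cells that do not divide, and repression by the DREAM complex acts through a cell cycle homology region (CHR) in promoters of this class, often with CCAAT boxes nearby. The 3 neighbours have other roles. EXOSC9 is a subunit of the RNA exosome, which degrades and trims RNA, CDC23 is a subunit of the anaphase-promoting complex, and ENSG00000261266 is annotated only as an antisense RNA.

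The promoters are shown because promoters of this class carry the motifs of that control, and because all 3 genes are followed together. Each sequence is the 250 bases before the gene's start in RefSeq, build GRCh38.p14, on the gene's own strand, 5′ to 3′. Capitals mark 3 forms of the CHR and the CCAAT box. The forms searched for were TTTGAA, then also TTTAAA, and finally CTTGAA. Both strands were searched, so that a CCAAT box on the other strand is printed as ATTGG, and the form CTTGAA there as TTCAAG. The promoter of CCNA2 lies at chr4:121823884-121824133 (minus strand), PLK1 at chr16:23678639-23678888 (plus strand) and KIF20A at chr5:138178862-138179111 (plus strand).
CCNA2: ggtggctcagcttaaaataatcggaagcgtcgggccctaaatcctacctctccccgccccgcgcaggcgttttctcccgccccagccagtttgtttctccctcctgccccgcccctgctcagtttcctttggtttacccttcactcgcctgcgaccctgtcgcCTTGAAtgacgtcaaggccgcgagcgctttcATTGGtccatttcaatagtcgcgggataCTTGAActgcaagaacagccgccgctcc
PLK1: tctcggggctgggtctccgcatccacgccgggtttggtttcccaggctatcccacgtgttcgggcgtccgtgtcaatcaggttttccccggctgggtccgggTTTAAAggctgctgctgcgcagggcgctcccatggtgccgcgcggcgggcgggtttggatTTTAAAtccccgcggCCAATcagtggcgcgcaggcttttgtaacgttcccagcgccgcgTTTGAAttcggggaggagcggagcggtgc
KIF20A: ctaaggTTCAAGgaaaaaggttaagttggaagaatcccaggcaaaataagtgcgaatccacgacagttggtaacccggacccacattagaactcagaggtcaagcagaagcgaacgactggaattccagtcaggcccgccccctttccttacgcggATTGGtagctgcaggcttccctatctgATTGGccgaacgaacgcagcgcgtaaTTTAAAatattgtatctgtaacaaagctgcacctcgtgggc

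Each promoter held at least 1 of the CHR forms and a CCAAT. In CCNA2, CTTGAA lay 87 to 82 and again 28 to 23 bases before the start, and CCAAT on the other strand 56 to 52 bases before it. In PLK1, TTTGAA lay 29 to 24 bases before the start, TTTAAA 148 to 143 and 88 to 83, and CCAAT 73 to 69. In KIF20A, TTTAAA lay 41 to 36 bases before the start, CTTGAA on the other strand 244 to 239, and CCAAT on the other strand 94 to 90 and 67 to 63. Among 35116 RefSeq promoters of the same length, 28.2% held 1 of the 3 CHR forms on either strand, 32% held CCAAT, and 9.91% held both. TTTGAA alone was in 13.3%, TTTAAA in 11.3% and CTTGAA in 9.52%. The match is a description of these letters, not a site of binding.

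The 3 readings rest on short shared stretches of exon, placed here with GENCODE release 29 on hg38. EXOSC9 (chr4:121801317-121817021, plus strand) and CCNA2 (chr4:121816444-121823933, minus strand) share 254 exon bases, all of them CCNA2 untranslated sequence and 9.08% of the CCNA2 exons. ENSG00000261266 (chr16:23687049-23687689, minus strand) shares 553 bases with PLK1 (chr16:23677656-23690367, plus strand), 156 of them coding and together 11.6% of the PLK1 exons. CDC23 (chr5:138187648-138213343, minus strand) shares 68 bases with KIF20A (chr5:138178719-138187715, plus strand), all untranslated and 1.72% of the KIF20A exons. The KIF20A reading is therefore the thinnest of the 3. Reads of the neighbour itself, or from parts of its exons that are not shared, could also lie in each row, and their part in the values was not tested.

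**Figure D1:**
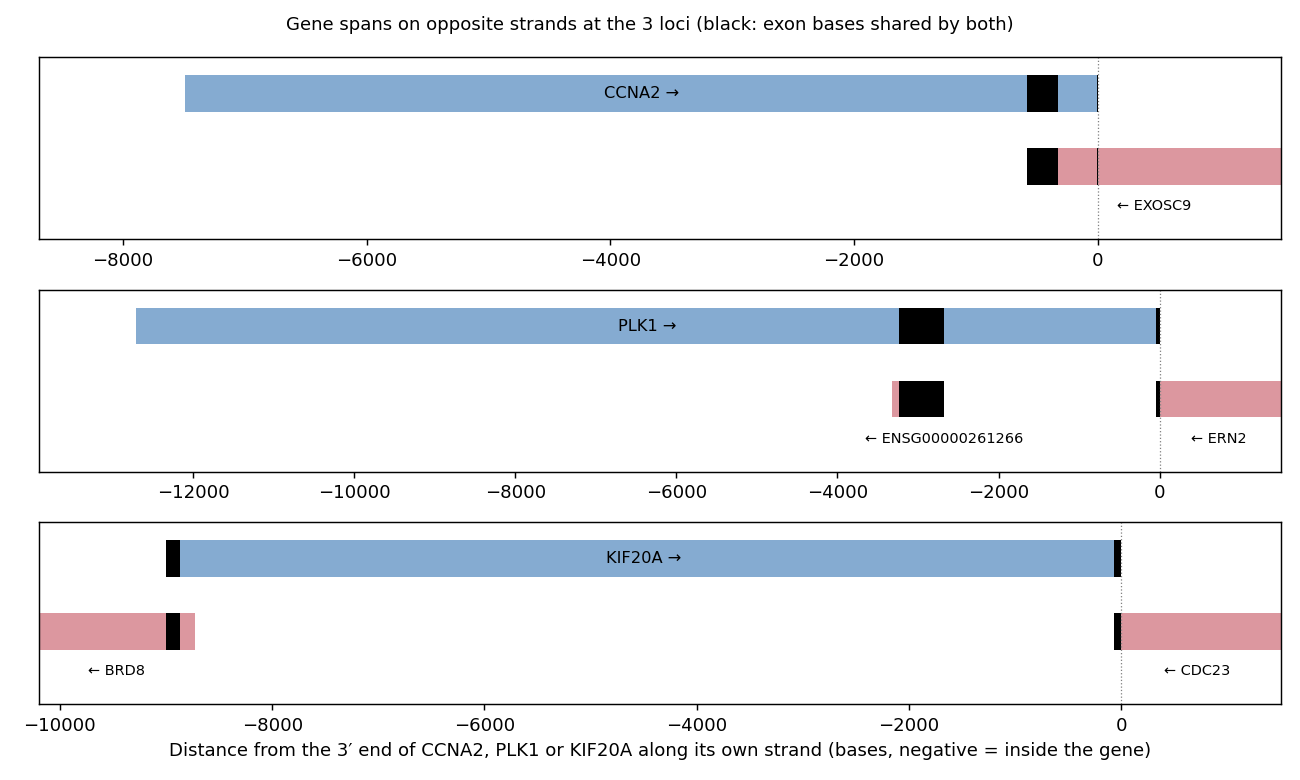
The 3 loci, with the span of the gene that is read drawn above the rows on the other strand, ERN2 and BRD8 included. Long rows are cut at the panel edges. The horizontal axis is the distance in bases from the 3′ end of the gene that is read, along its own strand and negative inside the gene. Black marks the shared exon bases, 254 for CCNA2 with EXOSC9, 553 for PLK1 with ENSG00000261266 and 68 for KIF20A with CDC23. The stretches shared with ERN2 and BRD8 are black too.

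Levels are given as CPM, the reads of a row scaled to the reads counted to genes in the same library. Over the 24 libraries the CCNA2 reading averaged 129 CPM, the PLK1 reading 419 CPM and the KIF20A reading 18.0 CPM. Protein-coding rows with no gene on the other strand, which can hold only reads on the wrong strand, had a median of 0.279 CPM over 9464 such rows. The CCNA2 reading stood at percentile 99.6 of those rows, the PLK1 reading at 99.9 and the KIF20A reading at 96.9. Per kilobase of shared exon, the level was 507 CPM for CCNA2, 758 CPM for PLK1 and 265 CPM for KIF20A. In other rows over the same genes it was 1540 CPM in ERN2 (42 bases of PLK1) and 5.97 CPM in BRD8 (132 bases of KIF20A). Over these rows together the level did not follow the length of the shared stretch. The reads behind 1 library's value numbered 193 to 783 for CCNA2, 577 to 2304 for PLK1 and 16 to 110 for KIF20A.

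The libraries held 2399212 to 5543678 reads on genes out of 44077624 to 101673235 uniquely aligned, with 94.3 to 94.6% assigned to no gene. The share of ambiguous reads is given of reads on genes and ambiguous reads together, not of all uniquely aligned reads. In 8 libraries, SG21 LPDS replicates 2 and 3 and the 6 of SGCTRL, ambiguous reads made up 2.10 to 2.24% of that total. The remaining 16 had 2.58 to 3.15%, so SGCTRL cannot be told apart from this split of the libraries. SG12, parental, SG21 FBS and SG21 LPDS replicate 1 lie on the same side. On that side the SG12 LPDS libraries had the highest shares, 2.99 to 3.15%. TMEM97, read through IFT20, had a lowest, median and highest level of 48.7, 116 and 208 CPM in SG12, 73.8, 98.4 and 137 CPM in SG21, 118, 147 and 166 CPM in SGCTRL, and 88.8, 130 and 170 CPM in parental cells. In FBS it was lower than in SGCTRL by a log2 fold change of -1.30 ± 0.13 (SE, edgeR adjusted p = 5.63e-10) in SG12 and -0.78 ± 0.12 (edgeR adjusted p = 1.87e-05) in SG21. In LPDS the values were 0.26 (edgeR adjusted p = 0.16) in SG12 and -0.39 ± 0.12 (edgeR adjusted p = 0.028) in SG21, so in LPDS this reading was not lower in SG12 and gave its label no support. The labels do not say which bases were targeted, and these shared bases may lie outside them. Of 7 epithelial markers that the label calls for, CLDN4, under its own name, averaged 39.4 CPM (7.27 to 56.9 over the libraries) and was lower in SG12 FBS than in SGCTRL FBS by a log2 fold change of -1.71 ± 0.27 (edgeR adjusted p = 7.59e-06), and ESRP1 averaged 0.278 CPM. E-cadherin (CDH1) read through its antisense row averaged 1.09 CPM, and KRT8 and KRT18, each read through the other, 0.233 and 0.335 CPM. The mesenchymal markers were mixed. Through rows on the other strand VIM averaged 23700 CPM (VIM-AS1), CD44 212 CPM, SPARC 107 CPM and TWIST1 58 CPM. Read that way, ZEB1 averaged 9.91 CPM and N-cadherin (CDH2) 0.444 CPM, and FN1 under its own name 11 CPM. EPCAM and KRT19, which have only their own rows, averaged 0.0658 and 0.0114 CPM, and of the leukocyte markers PTPRC and CD3E averaged 0.105 and 0.0631 CPM but CD68 22.2 CPM, all under their own names. Own-name rows, those of CLDN4, ESRP1 and FN1 included, hold reads on the wrong strand for the gene. Neither a high nor a low value there is a measure of that marker.

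The CCNA2 reading was lowest in SG12 cells in FBS. It was 117, 105 and 103 CPM in SG12 LPDS and 77.7, 80.3 and 76.2 CPM in SG12 FBS. In SG21 it was 151, 153 and 144 CPM in LPDS and 159, 138 and 141 CPM in FBS. In SGCTRL it was 150.2, 146 and 141 CPM in LPDS and 163, 169 and 165 CPM in FBS. The 3 SG12 FBS libraries lay below all others, and SG12 LPDS lay below every SG21 and SGCTRL library. Parental cells spread more widely, with 86.9, 126 and 118 CPM in LPDS and 149, 102 and 131 CPM in FBS, and overlapped SG12 LPDS. By mean, the order from high to low was SGCTRL FBS, SG21 LPDS, SG21 FBS, SGCTRL LPDS, parental FBS, parental LPDS, SG12 LPDS and SG12 FBS. Only the first and the last of these stood clear of their neighbour's range.

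The PLK1 reading was low in SG12 in both media. It was 301, 275 and 268 CPM in SG12 LPDS and 304, 299 and 228 CPM in SG12 FBS. In SG21 it was 424, 486 and 517 CPM in LPDS and 447, 556 and 530.4 CPM in FBS. In SGCTRL it was 438, 468 and 416 CPM in LPDS and 498, 468 and 488 CPM in FBS. All 6 SG12 libraries lay below every other library. Parental cells had 396, 393 and 368 CPM in LPDS and 429, 635 and 431 CPM in FBS, the highest value of the series being parental FBS replicate 2. By mean, the order was SG21 FBS, parental FBS, SGCTRL FBS, SG21 LPDS, SGCTRL LPDS, parental LPDS, SG12 LPDS and SG12 FBS. Parental LPDS was clear of SGCTRL LPDS above it and of SG12 LPDS below it, while the ranges of the 2 SG12 groups overlapped, as did each pair of neighbours among the first 5.

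The KIF20A reading was low in SG12 cells in FBS and not in LPDS. It was 18.4, 16.4 and 15.0 CPM in SG12 LPDS and 10.2, 7.59 and 6.32 CPM in SG12 FBS. In SG21 it was 19.8, 11.5 and 18.4 CPM in LPDS and 27.3, 24.8 and 27.1 CPM in FBS. In SGCTRL it was 11.4, 17.7 and 17.9 CPM in LPDS and 24.8, 14.8 and 22.1 CPM in FBS. Parental cells had 7.21, 27.0 and 17.7 CPM in LPDS and 26.3, 22.3 and 20.4 CPM in FBS. SG12 FBS lay below every other library but parental LPDS replicate 1, which with 18 reads fell among its values. By mean, the order was SG21 FBS, parental FBS, SGCTRL FBS, parental LPDS, SG12 LPDS, SG21 LPDS, SGCTRL LPDS and SG12 FBS, and among neighbours only the last pair did not overlap.

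**Figure D2:**
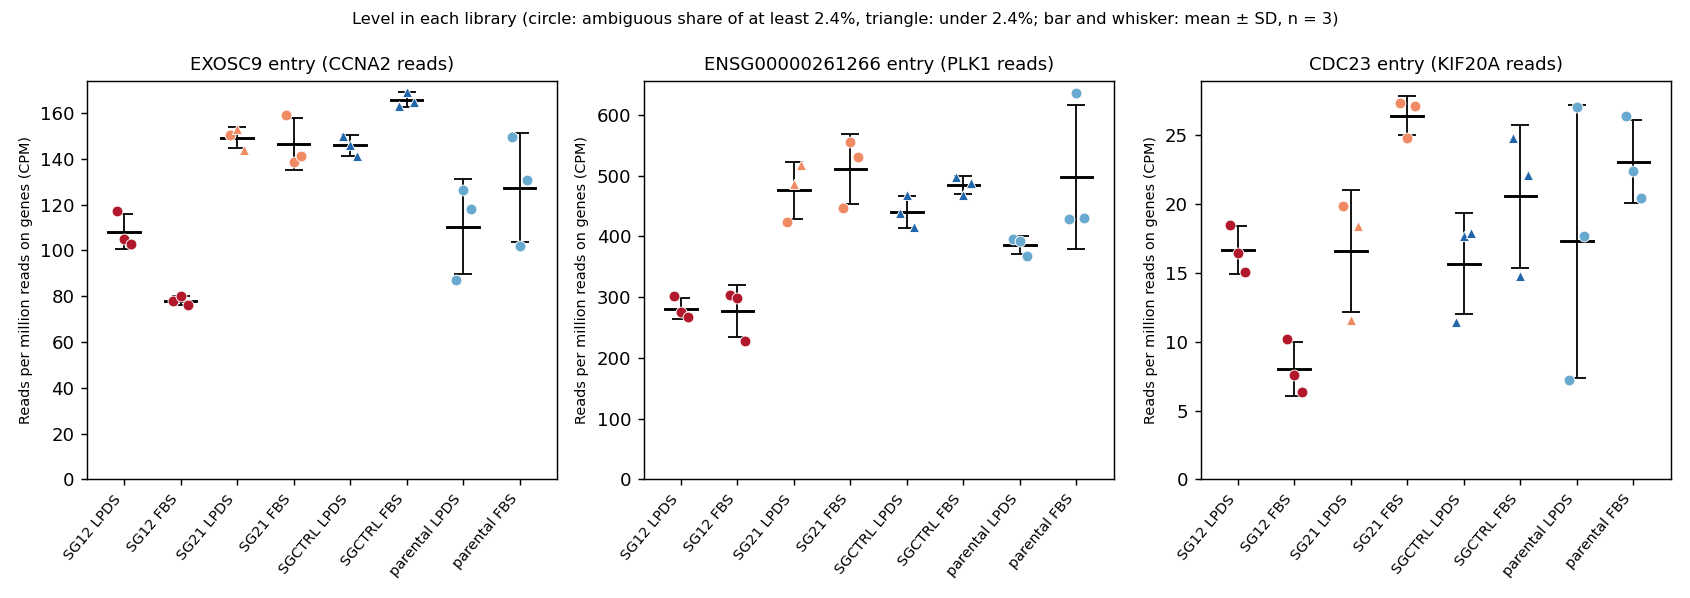
Levels of the CCNA2, PLK1 and KIF20A readings in CPM (vertical axis, from 0) in the 8 groups, with 1 point per library and a bar for the mean and SD of 3. SG12 FBS is lowest for CCNA2 (76.2 to 80.3 CPM) and KIF20A (6.32 to 10.2 CPM), and both SG12 groups are lowest for PLK1.

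The first question was what the medium did within a line. In SG12 cells 2 of the 3 readings were higher in LPDS than in FBS, where 11.6% of the 12822 rows tested passed upward and 22.5% passed in all (adjusted p under 0.05 in edgeR's quasi-likelihood test). The CCNA2 reading averaged 108 ± 7.74 CPM in SG12 LPDS and 78.1 ± 2.06 CPM in SG12 FBS (SD, n = 3 each), a log2 fold change of 0.47 ± 0.14 (SE, edgeR adjusted p = 0.0105). The KIF20A reading averaged 16.6 ± 1.73 CPM in SG12 LPDS and 8.03 ± 1.97 CPM in SG12 FBS, a log2 fold change of 1.04 ± 0.33 (edgeR adjusted p = 0.0187). The PLK1 reading averaged 281 ± 17.7 CPM in SG12 LPDS and 277 ± 42.6 CPM in SG12 FBS, and its log2 fold change of 0.02 had a 95% interval of -0.24 to 0.29 (edgeR adjusted p = 0.921). The first 2 calls each rested on single libraries. Without SG12 LPDS replicate 1 the CCNA2 value was 0.41 (edgeR adjusted p = 0.0578) and the KIF20A value 0.96 (edgeR adjusted p = 0.0663), and without SG12 FBS replicate 2 or 3 the KIF20A value was 0.99 (edgeR adjusted p = 0.0699) or 0.92 (edgeR adjusted p = 0.0628). In bulk RNA, fewer cells in G2 and mitosis and less of a transcript per cell cannot be told apart.

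In the other 3 lines 0 of the 3 readings passed between the media in edgeR or in DESeq2, and at an unadjusted p under 0.05 there was 1 in SG21 (KIF20A), 0 in SGCTRL and 1 in parental cells (PLK1). The share of all rows that passed was 3.76% in SG21, 2.25% in SGCTRL and 4.67% in parental cells. For CCNA2 the log2 fold change, LPDS over FBS, was -0.0020 in SG21 (95% interval -0.28 to 0.27), -0.17 in SGCTRL (-0.45 to 0.10) and -0.19 in parental cells (-0.47 to 0.09). For PLK1 it was -0.14 in SG21 (-0.40 to 0.12), -0.13 in SGCTRL (-0.38 to 0.13) and -0.36 in parental cells (-0.62 to -0.10, edgeR adjusted p = 0.0808). The parental PLK1 value passed when 1 FBS library was left out, with -0.45 (edgeR adjusted p = 0.033) without replicate 1 and -0.47 (edgeR adjusted p = 0.0353) without replicate 3. For KIF20A it was -0.72 ± 0.29 in SG21 (-1.33 to -0.10, edgeR adjusted p = 0.184), -0.38 in SGCTRL (-0.99 to 0.24) and -0.38 in parental cells (-0.99 to 0.24). Each of these 9 values was below 0.

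SG12 and SG21 were then set against SGCTRL. In FBS all 3 readings were lower in SG12 than in SGCTRL, where 13.1% of rows passed downward and 25.2% in all. The CCNA2 reading averaged 78.1 ± 2.06 CPM in SG12 FBS and 166 ± 3.25 CPM in SGCTRL FBS, with no overlap, a log2 fold change of -1.06 ± 0.13 (edgeR adjusted p = 1.21e-07). The PLK1 reading averaged 277 ± 42.6 CPM in SG12 FBS and 485 ± 15.2 CPM in SGCTRL FBS, a log2 fold change of -0.79 ± 0.12 (edgeR adjusted p = 6.49e-06). The KIF20A reading averaged 8.03 ± 1.97 CPM in SG12 FBS and 20.5 ± 5.19 CPM in SGCTRL FBS, a log2 fold change of -1.33 ± 0.32 (edgeR adjusted p = 0.00183). These 3 calls held when any 1 SG12 FBS or SGCTRL FBS library was left out. The split varies within a group only among the 3 SG21 LPDS libraries, so a term for it is estimated from those of another line. With that term in the fit, CCNA2 remained lower at -1.13 (edgeR adjusted p = 0.00131) and KIF20A at -1.81 (edgeR adjusted p = 0.0381), while PLK1 no longer passed at -0.60 (edgeR adjusted p = 0.0892).

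Against parental cells, which lie on the same side of the split as SG12, the FBS values of SG12 were of the same direction, and 3 of 3 readings were lower where 13.7% of rows passed downward and 26.5% in all. The log2 fold change was -0.67 ± 0.14 (edgeR adjusted p = 0.00028) for CCNA2, -0.81 ± 0.12 (edgeR adjusted p = 4.5e-06) for PLK1 and -1.48 ± 0.32 (edgeR adjusted p = 0.000571) for KIF20A. Both sets of values use the same SG12 FBS libraries.

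In LPDS 2 of the 3 readings were lower in SG12 than in SGCTRL, where 5.82% of rows passed downward and 10.9% in all. The PLK1 reading averaged 281 ± 17.7 CPM in SG12 LPDS and 441 ± 26.4 CPM in SGCTRL LPDS, a log2 fold change of -0.64 ± 0.12 (edgeR adjusted p = 0.000398). The CCNA2 reading averaged 108 ± 7.74 CPM in SG12 LPDS and 146 ± 4.48 CPM in SGCTRL LPDS, a log2 fold change of -0.42 ± 0.13 (edgeR adjusted p = 0.0324). The KIF20A value was 0.09 with a 95% interval of -0.54 to 0.72. Against parental LPDS, where 5.05% of rows passed downward and 9.69% in all, 1 of 3 passed, PLK1 at -0.42 ± 0.12 (edgeR adjusted p = 0.0244), while CCNA2 was at -0.00071 (-0.28 to 0.28) and KIF20A at -0.06 (-0.69 to 0.56). With the split term, which rests on the same SG21 LPDS libraries, the LPDS values of SG12 over SGCTRL were -0.45 for PLK1 (edgeR adjusted p = 0.369) and -0.49 for CCNA2 (edgeR adjusted p = 0.372). The CCNA2 call also ended when any 1 of 4 libraries was left out, with -0.39 without SGCTRL LPDS replicate 1 (edgeR adjusted p = 0.113), -0.397 without SGCTRL LPDS replicate 2 (0.1), -0.40 without SG12 LPDS replicate 2 (0.0985) and -0.38 without SG12 LPDS replicate 3 (0.128).

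In SG21, also labelled TMEM97 Knockout, 0 of the 3 readings passed against SGCTRL in either medium in edgeR, 0 had an unadjusted p under 0.05 and DESeq2 called 0, while 10.7% of all rows passed in LPDS and 14.1% in FBS. In LPDS the log2 fold changes were -0.01 for CCNA2 (95% interval -0.29 to 0.26), 0.06 for PLK1 (-0.20 to 0.32) and 0.01 for KIF20A (-0.62 to 0.65). In FBS they were -0.18 for CCNA2 (-0.46 to 0.09), 0.07 for PLK1 (-0.19 to 0.33) and 0.35 for KIF20A (-0.25 to 0.95). Against parental LPDS, where 5.9% of rows passed upward and 11.3% in all, the CCNA2 reading of SG21 LPDS was higher by 0.41 ± 0.13 (edgeR adjusted p = 0.0387), and the other 2 readings did not pass. In FBS 0 of 3 passed against parental cells in edgeR, at an unadjusted p under 0.05 or in DESeq2, where 24.1% of all rows passed.

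SG12 and SG21 were compared with each other directly. In FBS, where both lie on the same side of the library split, all 3 readings were lower in SG12 than in SG21, and 14.5% of rows passed downward and 27.6% in all. The log2 fold change was -0.88 ± 0.13 for CCNA2 (edgeR adjusted p = 3.25e-06), -0.86 ± 0.12 for PLK1 (edgeR adjusted p = 1.13e-06) and -1.68 ± 0.32 for KIF20A (edgeR adjusted p = 8.03e-05). The group means were 78.1 ± 2.06 CPM in SG12 and 146 ± 11.3 CPM in SG21 for CCNA2, 277 ± 42.6 CPM in SG12 and 511 ± 57.1 CPM in SG21 for PLK1, and 8.03 ± 1.97 CPM in SG12 and 26.4 ± 1.41 CPM in SG21 for KIF20A. For none of the 3 did the 2 lines overlap in FBS.

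In LPDS 2 of 3 readings were lower in SG12 than in SG21, and 9.52% of rows passed downward and 18.3% in all. PLK1 was at -0.70 ± 0.12 (edgeR adjusted p = 5.98e-05), CCNA2 at -0.41 ± 0.13 (edgeR adjusted p = 0.0266) and KIF20A at 0.08 (95% interval -0.56 to 0.72). Against SG21 LPDS replicate 1 alone, the 1 library of that group on the side of SG12, PLK1 was still lower at -0.57 (edgeR adjusted p = 0.0257) and CCNA2 did not pass at -0.45 (edgeR adjusted p = 0.126). CCNA2 also did not pass without SG12 LPDS replicate 2 (-0.39, edgeR adjusted p = 0.0834) or 3 (-0.37, 0.103) or without SG21 LPDS replicate 1 (-0.38, 0.0581) or 2 (-0.37, 0.097).

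SGCTRL was also set against parental cells. In LPDS 0.842% of rows passed and 0 of the 3 readings did in edgeR or DESeq2, with 1 at an unadjusted p under 0.05, CCNA2 being at 0.42 ± 0.13 (95% interval 0.14 to 0.69, edgeR adjusted p = 0.125), PLK1 at 0.21 (-0.04 to 0.47) and KIF20A at -0.15 (-0.77 to 0.47). In FBS, where 8.1% of rows passed upward and 18.2% in all, CCNA2 was higher in SGCTRL by 0.40 ± 0.13 (edgeR adjusted p = 0.0299), PLK1 was at -0.02 (-0.28 to 0.24) and KIF20A at -0.15 (-0.76 to 0.46). That call held only without parental FBS replicate 1. It did not pass without parental FBS replicate 2 (0.26, edgeR adjusted p = 0.231) or 3 (0.40, 0.061), or without SGCTRL FBS replicate 1 (0.42, 0.0572), 2 (0.40, 0.0647) or 3 (0.38, 0.0932).

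**Figure D3:**
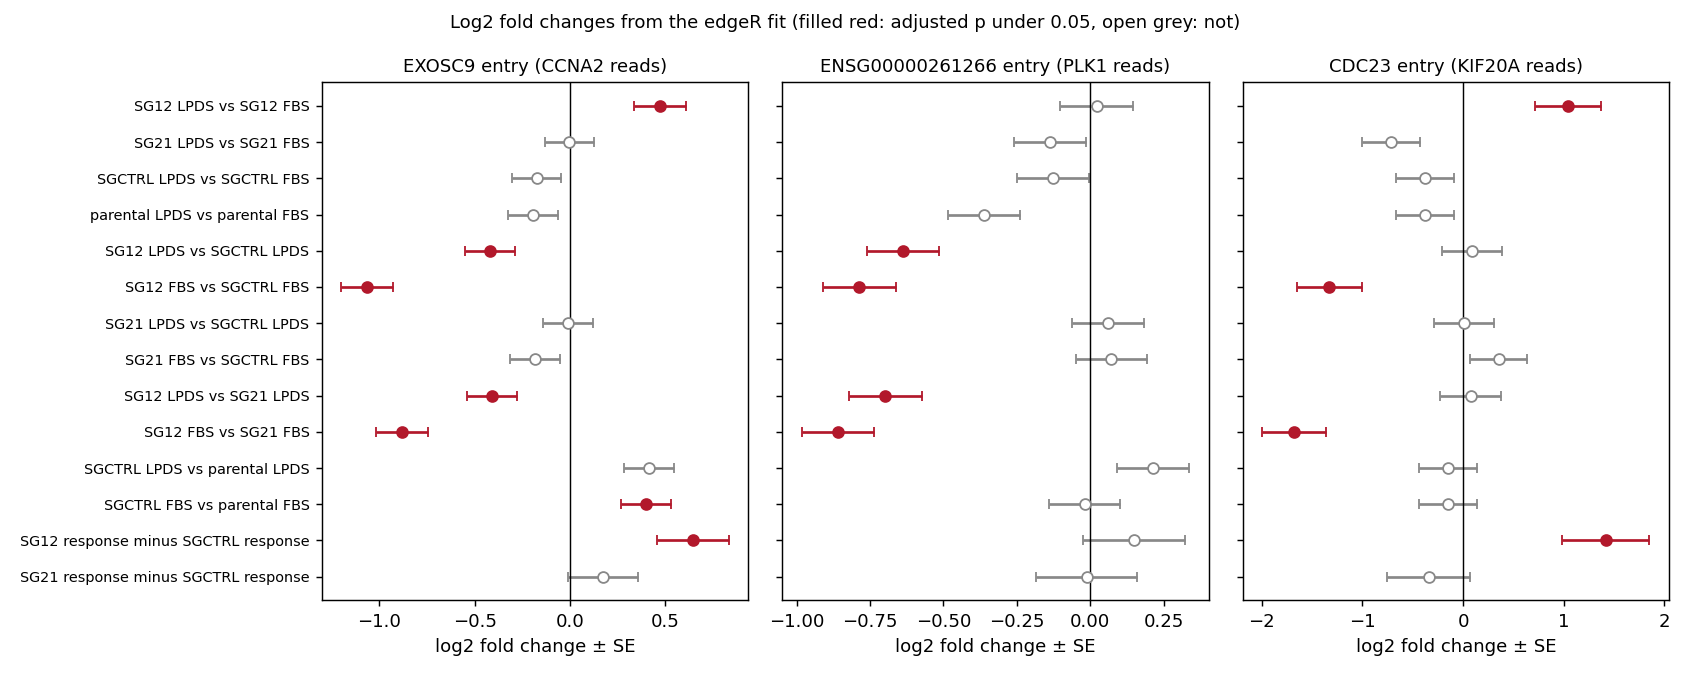
Log2 fold changes of the 3 readings (horizontal axis) in the comparisons drawn, the first named group over the second, with bars for the SE. Filled points passed at an edgeR adjusted p under 0.05. SG12 is lower than SGCTRL and SG21 in FBS for all 3 readings, while SG21 lies near 0 against SGCTRL.

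Whether the medium acted differently in the lines was tested as the difference of the 2 responses. The LPDS response of SG12 exceeded that of SGCTRL for 2 of 3 readings, and 5.08% of rows passed in that direction and 10.4% in all. The difference was 0.65 ± 0.19 for CCNA2 (edgeR adjusted p = 0.0213), 1.42 ± 0.44 for KIF20A (edgeR adjusted p = 0.0313) and 0.15 for PLK1 (95% interval -0.22 to 0.52). Against the response of parental cells, where 3.24% of rows passed in that direction and 8.04% in all, the same 2 readings passed, with 0.67 ± 0.19 for CCNA2 (edgeR adjusted p = 0.022) and 1.42 ± 0.44 for KIF20A (edgeR adjusted p = 0.0358), and PLK1 was at 0.38 (0.01 to 0.75, edgeR adjusted p = 0.188). Against the response of SG21, a contrast added after the data had been seen, KIF20A passed at 1.76 ± 0.44 (edgeR adjusted p = 0.00559) where 6.57% of rows passed in that direction and 12.9% in all, CCNA2 was at 0.47 ± 0.19 (0.07 to 0.87, edgeR adjusted p = 0.0941) and PLK1 at 0.16 (-0.21 to 0.53). These 3 contrasts use the same 6 SG12 libraries.

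Single libraries decided both calls against SGCTRL. CCNA2 was at 0.59 (edgeR adjusted p = 0.056) without SGCTRL LPDS replicate 3, 0.64 (0.0508) without SG12 FBS replicate 1 and 0.59 (0.0616) without SG12 LPDS replicate 1. KIF20A did not pass in 7 of 12 fits that left out 1 library. It was at 1.27 (edgeR adjusted p = 0.0842) without SGCTRL FBS replicate 1, 1.33 (0.0701) without SGCTRL FBS replicate 3 and 1.25 (0.0873) without SGCTRL LPDS replicate 1. It was at 1.37 (0.0747) without SG12 FBS replicate 2, 1.29 (0.0595) without SG12 FBS replicate 3, 1.33 (0.0713) without SG12 LPDS replicate 1 and 1.42 (0.0528) without SG12 LPDS replicate 2. The LPDS response of SG21 minus that of SGCTRL was 0.17 for CCNA2 (95% interval -0.22 to 0.56), -0.01 for PLK1 (-0.38 to 0.35) and -0.34 for KIF20A (-1.21 to 0.53), and none of them passed. In that contrast 0% of rows passed in edgeR, while 1070 had an unadjusted p under 0.05 and DESeq2 called 32, the 3 readings not among them.

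Other rows over the same genes gave a second view. PLK1 also shares 42 untranslated bases (chr16:23690326-23690367) with ERN2, a stress sensor kinase of the endoplasmic reticulum, which itself has a further neighbour on the other strand with 83 shared bases. ERN2 averaged 47.1 ± 7.32 CPM in SG12 FBS, 74.2 ± 9.46 CPM in SG21 FBS and 75.8 ± 4.86 CPM in SGCTRL FBS (SD, n = 3 each). It was lower in SG12 FBS than in SGCTRL FBS by a log2 fold change of -0.67 ± 0.17 (edgeR adjusted p = 0.00343) and than in SG21 FBS by -0.63 ± 0.17 (edgeR adjusted p = 0.00528). In LPDS it averaged 55.8 ± 4.61 CPM in SG12, 84.3 ± 2.44 CPM in SG21 and 58.6 ± 4.45 CPM in SGCTRL. There it was lower in SG12 than in SG21 by -0.54 ± 0.17 (edgeR adjusted p = 0.0221) but at -0.06 against SGCTRL (95% interval -0.42 to 0.30), where the PLK1 reading was lower. Parental cells had 55.7 ± 17.2 CPM of ERN2 in FBS (36.2 to 68.7), and there ERN2 of SG12 was at -0.20 (edgeR adjusted p = 0.435), while the PLK1 reading was at -0.81. BRD8, which shares 132 bases with the other end of KIF20A (chr5:138178719-138178850), held 0 to 8 reads a library and could not be used.

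The rows named CCNA2 and KIF20A can hold reads of EXOSC9 and CDC23 on the other strand. The row named CCNA2 averaged 67.7 ± 10.7 CPM in SG12 FBS, 81.7 ± 10.2 CPM in SG21 FBS and 48.8 ± 8.72 CPM in SGCTRL FBS. It was higher in SG21 than in SGCTRL by 0.74 ± 0.19 in FBS (edgeR adjusted p = 0.0058) and 0.58 ± 0.19 in LPDS (edgeR adjusted p = 0.0386), and at 0.50 ± 0.19 in SG12 FBS over SGCTRL FBS (edgeR adjusted p = 0.0544), where the CCNA2 reading was at -1.06. The row named KIF20A averaged 17.8 ± 5.33 CPM in SG12 FBS, 29.2 ± 6.36 CPM in SG21 FBS and 29.5 ± 2.07 CPM in SGCTRL FBS. It was lower in SG12 FBS than in SGCTRL FBS by -0.70 ± 0.25 (edgeR adjusted p = 0.0342) and than in SG21 FBS by -0.67 ± 0.25 (edgeR adjusted p = 0.0387), the same direction as the KIF20A reading. Against parental FBS, at 23.5 ± 7.44 CPM, it did not pass, at -0.34 (edgeR adjusted p = 0.339), where the KIF20A reading was at -1.48. Its level, 25.3 CPM over the 24 libraries, was above the 18.0 CPM of the KIF20A reading, so at this locus reads of KIF20A and of CDC23 cannot be told apart by level, and the KIF20A reading may hold reads of CDC23 itself. The row named PLK1 held 2 to 33 reads a library.

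**Figure D4:**
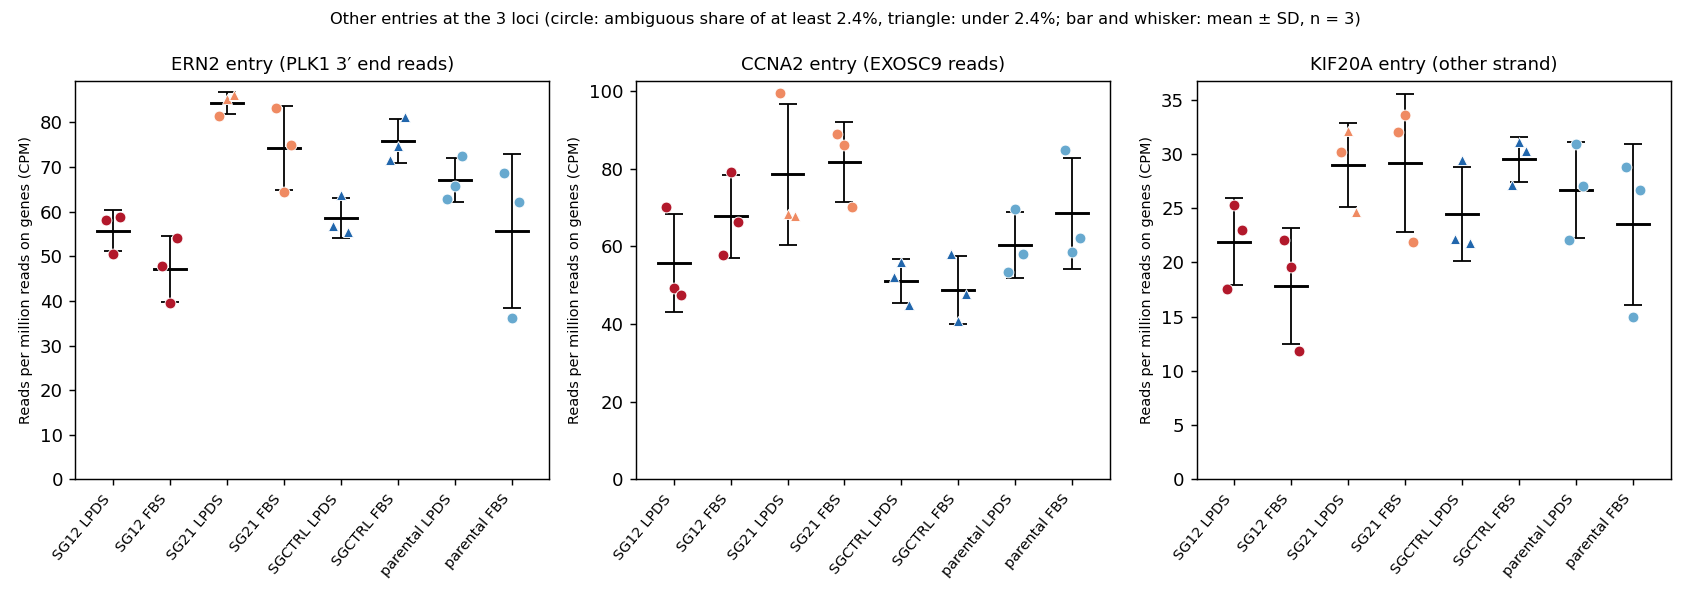
Levels in CPM (vertical axis, from 0) of ERN2 and of the rows named CCNA2 and KIF20A in the 8 groups, with 1 point per library and a bar for the mean and SD of 3. In SG12 FBS ERN2 lies at 39.5 to 54.1 CPM and the row named KIF20A at 11.8 to 22.1 CPM, both overlapping parental FBS (36.2 to 68.7 and 15.0 to 28.8 CPM), and the row named CCNA2 lies at 57.7 to 79.0 CPM.

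Other genes of mitosis were read in the same way. Of a list of 86, 17 could be measured through a row on the other strand, the 3 readings included. In SG12 FBS against SGCTRL FBS 8 were lower and 1 higher, with a median log2 fold change of -0.46. Over all rows tested the median was -0.03, and 13.1% passed downward and 12.1% upward. Besides the readings, the lowest were CDCA3, which targets WEE1 for destruction, at -1.36 ± 0.15 (edgeR adjusted p = 4.1e-09) and cyclin F (CCNF), a substrate receptor of a ubiquitin ligase, at -1.32 ± 0.11 (edgeR adjusted p = 7.14e-12). The 1 that was higher, named after its value was seen, was NCAPG, a condensin subunit that compacts mitotic chromosomes, at 0.69 ± 0.12 (edgeR adjusted p = 2.31e-05). In LPDS 4 were lower in SG12 than in SGCTRL and 1 higher, with a median of -0.19. Of all rows 5.82% passed downward there and 5.12% upward. DEPDC1 was at -0.66 ± 0.12 (edgeR adjusted p = 0.000314), while anillin (ANLN), which scaffolds the contractile ring, was higher at 0.44 ± 0.13 (edgeR adjusted p = 0.0259).

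Within SG12, 6 of the 17 were higher in LPDS than in FBS and 2 lower, with a median of 0.17. Over all rows the median was 0.02, and 11.6% passed upward and 10.9% downward. CDCA3 was at 0.99 ± 0.15 (edgeR adjusted p = 4.68e-06) and CCNF at 0.56 ± 0.11 (edgeR adjusted p = 0.000191). HMMR, a spindle protein that binds hyaluronan, was lower at -0.71 ± 0.13 (edgeR adjusted p = 0.000145), and shugoshin (SGO1), which protects centromeric cohesion, at -0.54 ± 0.12 (edgeR adjusted p = 0.00117). The LPDS response of SG12 exceeded that of SGCTRL for 6 of the 17, where 5.08% of all rows passed in that direction. The difference was 1.52 ± 0.20 for CDCA3 (edgeR adjusted p = 1.62e-06), 1.00 ± 0.15 for CCNF (edgeR adjusted p = 1.61e-05) and 0.66 ± 0.19 for ANLN (edgeR adjusted p = 0.0194). For the response of SG21 minus that of SGCTRL, 0 of 17 passed in edgeR and in DESeq2, and 2 had an unadjusted p under 0.05.

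Between SG12 and SG21 in FBS, 12 of the 17 were lower in SG12 than in SG21 and 1 higher, with a median of -0.69. Of all rows 14.5% passed downward there and 13.1% upward. CDCA3 was at -1.52, CCNF at -1.22, ANLN at -1.09 and KIF22, a kinesin on chromosome arms, at -0.95. In LPDS 7 were lower and 1 higher, with a median of -0.25, beside 9.52% of all rows downward and 8.75% upward. SGO1 was at -0.67, KIF22 at -0.48 and NCAPG at 0.99. In SG21 against SGCTRL 3 were higher in FBS, beside 7.4% of all rows, ANLN at 0.87 ± 0.13, SGO1 at 0.49 ± 0.12 and KIF4A at 0.67 ± 0.19. In LPDS 2 were higher, SGO1 at 0.41 and KIF22 at 0.37, and NCAPG was lower at -0.65, beside 5.3% of all rows upward and 5.39% downward. Within SG21 3 were lower in LPDS than in FBS, ANLN and CDCA3 at -0.67 each and KIF4A at -0.68, within SGCTRL 2, CCNF at -0.43 and CDCA3 at -0.54, and within parental cells 1, ANLN at -0.48. Of all rows 1.95% were lower in LPDS within SG21, 0.967% within SGCTRL and 2.49% within parental cells. In SGCTRL against parental cells 2 were higher and 3 lower in FBS, beside 8.1% of all rows upward and 10.1% downward. In LPDS, where 0.842% of all rows passed, 0 of the 17 did in edgeR and in DESeq2, with 4 at an unadjusted p under 0.05. When the split was a term of the edgeR fit, the count fell to 0 of 17 in SG12 LPDS against SGCTRL LPDS, where it was 5, and in SG21 FBS against SGCTRL FBS, where it was 3.

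**Figure D5:**
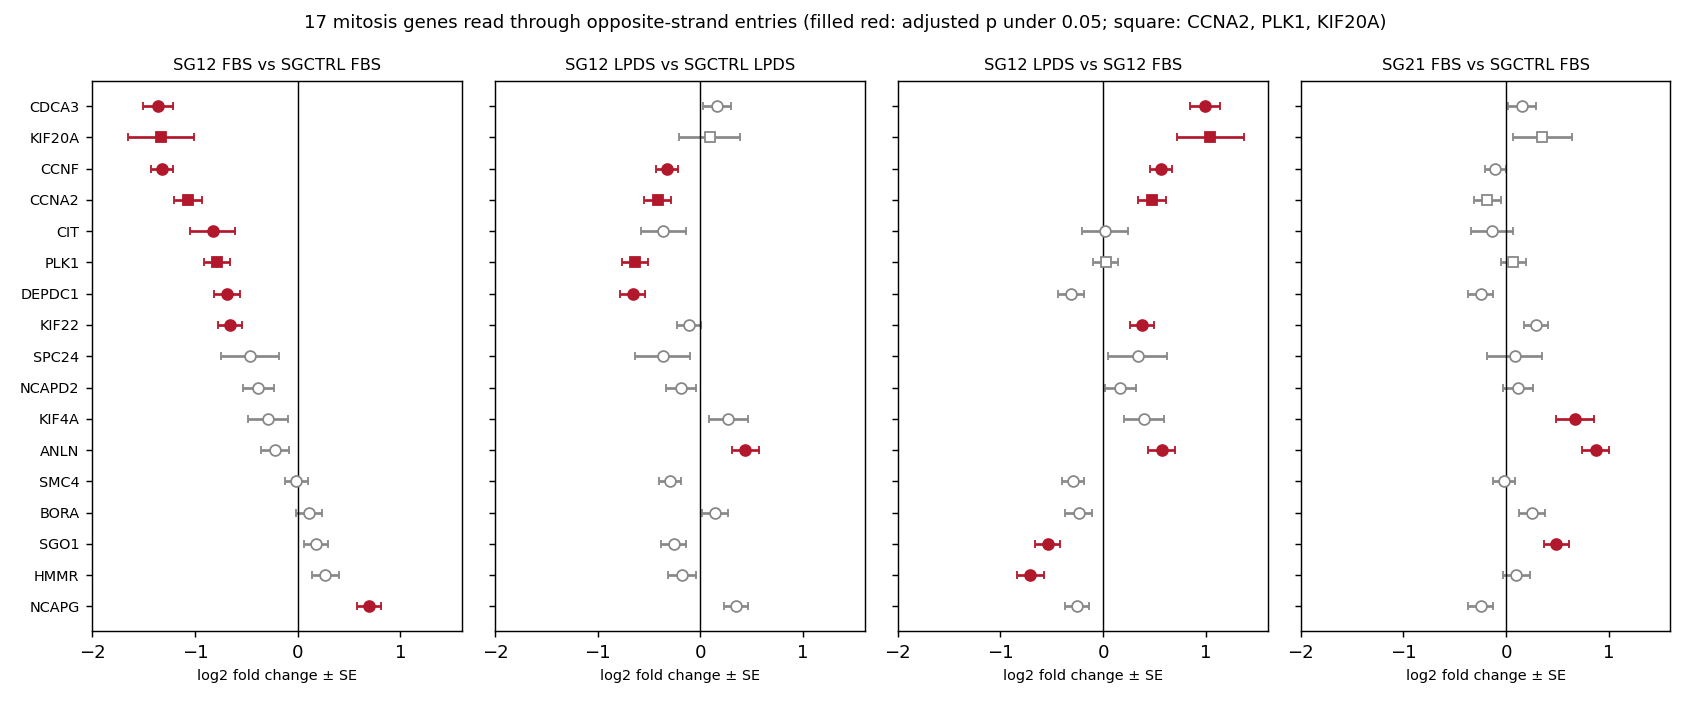
Log2 fold changes (horizontal axis) of the 17 mitosis genes that could be read through a row on the other strand, with a panel for each comparison drawn. Bars are the SE, and filled points passed at an edgeR adjusted p under 0.05. Squares mark CCNA2, PLK1 and KIF20A. In SG12 FBS against SGCTRL FBS 8 genes are lower and NCAPG higher, and the values of CDCA3 and CCNF are positive in SG12 LPDS against SG12 FBS.

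Genes of neighbouring steps of the cycle were read through 10 of 50 DNA replication and S phase genes and 9 of 27 cell cycle control genes. In SG12 FBS against SGCTRL FBS 4 replication genes were lower and 2 higher, beside 13.1% of all rows downward and 12.1% upward. The helicase subunit MCM2 was at -2.22 ± 0.11 (edgeR adjusted p = 1e-17), cyclin E2 (CCNE2) at -1.76 ± 0.19, the ligase LIG1 at -1.50 ± 0.16 and the clamp loader subunit RFC5 at -0.91 ± 0.15. In LPDS 2 were lower and 1 higher, beside 5.82% and 5.12% of all rows, RFC5 at -0.81, MCM2 at -0.56 and the histone chaperone subunit CHAF1A at 0.57. Within SG12, 4 were higher in LPDS than in FBS and 1 lower, beside 11.6% and 10.9% of all rows, MCM2 at 1.35, CCNE2 at 1.03, LIG1 at 0.98 and GINS4 at -0.63. The response of SG12 exceeded that of SGCTRL for 3, beside 5.08% of all rows, MCM2 by 1.66, CCNE2 by 1.39 and LIG1 by 1.18, and fell short for GINS4 by a difference of -0.57, where 5.3% of all rows fell short. These GINS4 values were read through GPAT4-AS1, which shares 131 bases with it. Another row, ENSG00000253174, shares 1159 bases with GINS4 and did not pass in this difference of responses.

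Of the control genes 3 were lower in SG12 FBS than in SGCTRL FBS, beside 13.1% of all rows, the inhibitor locus CDKN2A at -0.89 ± 0.12, CDK2, a partner of cyclin A2, at -0.75 ± 0.11 and RBL2, a pocket protein of the DREAM complex, at -0.37 ± 0.11. In LPDS 3 were lower, beside 5.82% of all rows, CDKN2A at -0.56, CDK2 at -0.37 and PKMYT1, a kinase that holds back CDK1, at -0.34. These CDK2 values were read through ENSG00000258554. Through another row, PMEL, CDK2 was at -1.23 ± 0.12 in SG12 FBS over SGCTRL FBS and -0.75 ± 0.12 in LPDS. The neighbours' own complexes were thinly measured. Of 16 genes of the anaphase-promoting complex 2 could be read, of which 1, ANAPC16 at 1.11 ± 0.13, was higher in SG12 FBS than in SGCTRL FBS. Of 13 RNA exosome genes 6 could be read, of which 2 were higher in SG12 FBS, EXOSC8 at 0.85 ± 0.12 and EXOSC10 at 0.56 ± 0.14, and EXOSC8 was lower in SG12 LPDS, at -0.43. In all 25.2% of rows passed in FBS and 10.9% in LPDS, and with so few genes nothing particular to either complex is read from these counts. The CCNA2 and KIF20A readings, under rows named for members of these 2 complexes, were lower in SG12 FBS.

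The 3 readings varied together across the 24 libraries to a middling degree, which is a description only, since the libraries share groups, depth and scaling. Pearson's r of log2 CPM was 0.665 between CCNA2 and PLK1, 0.668 between CCNA2 and KIF20A and 0.564 between PLK1 and KIF20A. The CCNA2 reading and the row named CCNA2 had an r of 0.027, and the PLK1 reading and ERN2 one of 0.329. Among 2858 rows with a protein-coding gene on the other strand and a mean of at least 10 CPM, those most like the CCNA2 reading were PRR11 (through PRR11-AS1, r = 0.896), CALM3 (through ENSG00000269292, r = 0.892) and SLC6A6 (through GRIP2, r = 0.889). Those most like the PLK1 reading were CDK2 (through PMEL, r = 0.944), BAIAP2L1 (through BRI3, r = 0.912) and CDKN2A (through CDKN2B-AS1, r = 0.909). Those most like the KIF20A reading were CDCA3 (through GNB3, r = 0.723), FANCL (through VRK2, r = 0.72) and SUV39H1 (through ENSG00000232828, r = 0.708), each less like it than the best matches of the other 2 readings.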

How the data were processed

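Gene counts came from total RNA of 24 HGC27 cultures, prepared with a stranded kit that removes ribosomal RNA, per the labels' protocols. The deposited files hold whole-number counts of reads per gene, not normalized by the authors, with the unassigned classes apart. bcl2fastq, STAR and hg38 are named in the submitters' processing notes, without versions, and the counting program is not given in the sources used here. The reads that were counted lie mostly under genes on the strand opposite to their own, so each row was read as the gene whose exons it shares on the other strand (GENCODE 29, at least 50 bases and 80% of all such overlap).

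Rows were tested with edgeR 4.0.16 in R 4.3.3 on the deposited counts of all 24 libraries, with 1 mean per group, TMM scaling, filterByExpr (12822 rows kept), quasi-likelihood F tests and Benjamini-Hochberg adjustment within a comparison, and the script was tested on simulated data. The SE is the log2 fold change divided by the root of F, and 95% intervals use 16 residual degrees of freedom. Reads assigned to no gene, 94.3 to 94.6% of those uniquely aligned, stayed out of library sizes. P-values measure the spread between the labelled biological replicates. Alternatives were DESeq2 1.42.0, its size factors, 2 other count filters, the spread of the compared groups alone, a replicate block, a term for the library split, uniquely aligned reads as depth, the own-name share as a covariate, parental cells as control, a stricter overlap, and each library left out with the rows and scaling kept. The own-name share is the part of reads on genes that lies under protein-coding rows with no gene on the other strand. Chosen after seeing the data were the contrast of the SG12 and SG21 responses, SG21 LPDS replicate 1 alone, robust dispersion and TMM against another library. The 3 readings and all lists were chosen with earlier results of these data known. Named besides the 3 readings and the rows of their genes' own names were up to 4 list genes per comparison that passed, by adjusted p, and the 3 rows most like each reading by Pearson's r of log2 CPM. The genes of each list are those that could be read through another row. Results for 1 gene of the cell cycle control list and 1 leukocyte marker are not reported here.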

Additional observations from a re-analysis of the deposited data

Results flagged for a closer look

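The LPDS response of SG12 differed from that of other lines in a test of the difference itself for 2 of the 3 readings. For the CCNA2 reading (row EXOSC9) the SG12 response minus the SGCTRL response was 0.65 on the log2 scale, and minus the parental response 0.67 (0.665). For the KIF20A reading (row CDC23) the SG12 response minus the SGCTRL response was 1.42, minus the parental response 1.42 and minus the SG21 response 1.76. The KIF20A values rest on 16 to 110 reads a library over 68 shared bases. The same 6 SG12 libraries enter each of these differences. Ambiguous reads, out of reads on genes and ambiguous reads together, were 2.63 to 2.80% in SG12 FBS and 2.99 to 3.15% in SG12 LPDS. They were 2.10 to 2.24% in SGCTRL and 2.60 to 2.69% in parental libraries. The part of this share in the differences was not tested.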

How the results depend on the processing

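The 42 results for the 3 readings (14 comparisons) were called alike in 474 of 491 values under alternatives that left out no library, and in 259 of 288 that left out 1. DESeq2 (41 with a value), its size factors, uniquely aligned reads as depth, robust dispersion and the replicate block changed none of these calls. The cause of the changes was not tested. The split term is estimated from the 3 SG21 LPDS libraries and cancels from the SG12 minus SGCTRL response.

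For CCNA2 in SG12 LPDS over SGCTRL LPDS the log2 fold change was -0.42 (adjusted p = 0.0841) with no count filter, -0.49 with the split term, -0.18 (adjusted p = 0.578) with the own-name share as covariate and -0.00071 against parental cells. In SG12 LPDS over SG21 LPDS it was -0.36 (adjusted p = 0.164) with no filter, -0.45 (0.121) with the split term, -0.18 (0.5) with the covariate and -0.45 with SG21 LPDS replicate 1 alone. In SGCTRL FBS over parental FBS it was 0.38 (0.0565) with the stricter filter, 0.40 (0.0796) with the spread of these groups alone, 0.47 (0.31) with the split term, 0.074 (0.917) with the covariate and 0.35 (0.0513) with TMM against parental FBS replicate 2. The SG12 minus SGCTRL response was 0.64 (0.0548) with no filter. SG21 LPDS against parental in place of SGCTRL turned to 0.41 (0.0387). For PLK1 the split term gave -0.45 in SG12 LPDS over SGCTRL LPDS and -0.60 in FBS.

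Leaving out 1 library gave CCNA2 0.41 to 0.51 in SG12 LPDS over FBS, -0.48 to -0.38 in SG12 LPDS over SGCTRL LPDS, -0.47 to -0.37 in SG12 LPDS over SG21 LPDS, 0.26 to 0.55 in SGCTRL FBS over parental FBS and 0.59 to 0.69 in the SG12 minus SGCTRL response. It gave PLK1 -0.47 to -0.15 in parental LPDS over FBS, and KIF20A 0.92 to 1.24 in SG12 LPDS over FBS and 1.25 to 1.62 in the SG12 minus SGCTRL response.

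The stricter overlap (at least 200 bases and 95%) left fewer genes of each list to count, so a lower count there need not mean a lost call. Of the mitosis genes it left out KIF20A, KIF4A, ANLN, SPC24, HMMR and CIT. Of the mitosis list 8 passed in SG12 LPDS against FBS, and 5 with the stricter overlap. In SG21 LPDS against FBS it was 3, and 5 with DESeq2, 5 with the replicate block, 0 with the split term and 1 with the stricter overlap. In LPDS against FBS it was 2 in SGCTRL, and 1 with the stricter filter, and 1 in parental cells, and 3 with DESeq2 and 0 with the stricter overlap. With the split term it was 0 against 5 in SG12 LPDS over SGCTRL LPDS, 1 against 3 in SG21 LPDS over SGCTRL LPDS, 0 against 3 in SG21 FBS over SGCTRL FBS, 0 against 5 in SGCTRL FBS over parental FBS and 4 against 8 in SG12 LPDS over SG21 LPDS. With the stricter overlap it was 1 in SG21 FBS over SGCTRL FBS and 3 in SGCTRL FBS over parental FBS. Of the replication list, 5 passed in SG12 LPDS against FBS and 3 with the stricter overlap, 3 in SG12 LPDS over SGCTRL LPDS and 1 with the split term, and 4 in the SG12 minus SGCTRL response and 2 with the stricter overlap. Of the control list 3 passed in SG12 LPDS over SGCTRL LPDS and 1 with the split term. The stricter overlap left no gene of the anaphase-promoting complex list to count. In SG12 FBS over SGCTRL FBS that list had 1, and 2 with DESeq2 and 0 with the split term, and the exosome list 2, and 0 with the split term. In LPDS the exosome list had 1, and 0 with the split term.

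Over all rows, the split term gave 784 calls against 3234 in SG12 FBS over SGCTRL FBS, 181 against 1402 in LPDS, 150 against 1810 in SG21 FBS over SGCTRL FBS, 153 against 2338 in SGCTRL FBS over parental FBS, 0 against 108 in LPDS, 1101 against 2343 in SG12 LPDS over SG21 LPDS and 71 against 482 in SG21 LPDS over FBS. The own-name share as covariate gave 144 in SGCTRL FBS over parental FBS, 68 in LPDS, 861 in SG12 LPDS over SGCTRL LPDS and 71 against 599 in parental LPDS over FBS. The spread of the compared groups alone gave 569 against 289 in SGCTRL LPDS over FBS, 250 in parental LPDS over FBS and 317 in SGCTRL LPDS over parental LPDS, where DESeq2 gave 225 and no filter 190. Parental cells as control gave 3088 in SG21 FBS. SG21 LPDS replicate 1 alone gave 68 in SG21 LPDS over FBS, 869 against 1370 over SGCTRL LPDS and 1065 in SG12 LPDS over SG21 LPDS. For the SG21 minus SGCTRL response, 0 as reported, alternatives gave 0 to 107, and 242 without SG21 LPDS replicate 1. Leaving out 1 library gave 219 to 837 in SG21 LPDS over FBS, 127 to 180 in SGCTRL LPDS over FBS, 152 to 895 in parental LPDS over FBS, 25 to 67 in SGCTRL LPDS over parental LPDS, 1093 to 2505 in FBS and 888 to 1140 in SG12 LPDS over SGCTRL LPDS.

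The replicate numbers were not used as pairs: over 84 same-numbered pairs of libraries the median correlation of deviations was 0.0035 (-0.13 to 0.21), with 9 over 0.1. Over 168 differently numbered pairs the median was -0.0018 (-0.24 to 0.20), with 8 over 0.1. With the replicate block the CCNA2 value of SG12 LPDS over FBS was 0.47 (adjusted p = 0.0108). KIF20A rests on 16 to 110 reads a library.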

Other observations

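Of the mitosis list, 19 genes with no neighbour on the other strand had enough reads under their own names to be tested. Of these rows 10 were lower in SG12 FBS, 10 in SG21 FBS and 9 in SGCTRL FBS than in parental FBS, with median log2 fold changes of -1.47, -1.32 and -1.15 over the same 3 parental libraries. Of all rows tested 13.7% were lower in SG12 FBS, 13.1% in SG21 FBS and 10.1% in SGCTRL FBS. In SG12 FBS over SGCTRL FBS 1 was higher and 1 lower, where 25.2% of all rows passed. The share of reads under all protein-coding rows with no gene on the other strand was 3.79, 4.56 and 4.12% in the parental FBS libraries. It was 3.05 to 3.96% in the others, and its part in these values was not tested. The rows were not used for the comparisons of the report.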
